A study of Mus musculus with 20 samples.

Results

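The genes described here are 8 transcription factors and cofactors of the follicular helper T (TFH) cell lineage, *Bcl6*, *Prdm1*, *Maf*, *Batf*, *Irf4*, *Tox*, *Tox2* and *Pou2af1*. They were chosen by name, and all 8 were among the 13798 genes of the expression table. Their transcripts were followed across 6 follicular T cell clusters, between 2 kinds of bone marrow chimera, and, for *Bcl6* and *Prdm1*, within single cells.

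The study reconstituted irradiated wild type recipients on the C57BL/6 background. WT chimeras (n = 5) received WT marrow and were immunized with NP-OVA in alum at week 6, with a later booster per the study's methods. Mixed 564Igi chimeras (n = 5) received WT marrow together with marrow of 564Igi mice, whose knocked-in heavy and light chains encode an autoreactive B cell receptor. The sort kept CD45.2+CD45.1- cells in both groups, and the WT group differed from the 564Igi group both in its marrow and in having been immunized. Per the labels, mice of both groups were analyzed 10 weeks after irradiation. Each mouse gave 1 library of 5′ gene expression and 1 of T cell receptor (TCR) sequences from sorted CD4+CXCR5+PD-1+ cells, so mice were the replicates throughout. The libraries held 14965 WT and 13227 564Igi cells, with 1121 to 4030 cells and 3424280 to 15241983 unique molecular identifiers (UMIs) per mouse. The 564Igi mouse 24 gave the fewest cells and the lowest median, 2728 UMIs per cell. A barcode found in more than 1 library was carried by 988 cells (3.50%).

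Follicular T cells enter B cell follicles, where TFH cells help B cells and follicular regulatory T (TFR) cells restrain the response. *Bcl6* encodes the repressor that defines the TFH lineage, and *Prdm1* encodes Blimp-1, a repressor that opposes it, and each of these factors can repress the gene of the other. The remaining genes encode factors that act with or around this pair in activated T cells, c-Maf, the AP-1 family member BATF, its partner IRF4, the HMG-box proteins TOX and TOX2, and OCA-B, the coactivator of octamer-binding factors encoded by *Pou2af1*. *Bcl6*, *Pou2af1*, *Irf4* and *Prdm1* are also genes of germinal center B cells or plasma cells.

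The 250 bases before annotated starts of *Bcl6* and *Prdm1* are shown because these genes carry the single-cell relation described later and because both lie downstream of cytokine and receptor signals. Sequences are from RefSeq on GRCm38.p6, where 6 of the 8 genes had an entry, and are written 5′ to 3′ on the strand of the gene. Capitals mark matches, on either strand, to the STAT consensus TTCNNNGAA or to the AP-1 pattern TGANTCA, in which N is any base. Upstream of the first start of *Bcl6* (chr16:23988853-23989102, minus strand) 1 STAT match was found. A second annotated start, whose window (chr16:23981284-23981533, minus strand) lies inside the annotated span of the gene, had 3 STAT matches. The window of *Prdm1* (chr10:44458749-44458998, minus strand), inside the annotated span of the gene, held 1 match to the AP-1 pattern, TGAATCA, and no STAT match.
Bcl6 first start: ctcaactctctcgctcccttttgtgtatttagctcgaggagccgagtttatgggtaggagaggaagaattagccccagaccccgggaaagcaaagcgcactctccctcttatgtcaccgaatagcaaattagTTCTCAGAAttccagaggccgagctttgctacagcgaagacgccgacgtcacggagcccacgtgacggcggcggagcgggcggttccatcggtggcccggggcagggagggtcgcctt
Bcl6 second start: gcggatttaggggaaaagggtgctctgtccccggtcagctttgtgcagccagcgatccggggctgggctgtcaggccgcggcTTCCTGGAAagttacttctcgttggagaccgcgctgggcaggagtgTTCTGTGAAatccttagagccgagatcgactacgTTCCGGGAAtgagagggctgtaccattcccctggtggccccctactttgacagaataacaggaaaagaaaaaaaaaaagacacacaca
Prdm1: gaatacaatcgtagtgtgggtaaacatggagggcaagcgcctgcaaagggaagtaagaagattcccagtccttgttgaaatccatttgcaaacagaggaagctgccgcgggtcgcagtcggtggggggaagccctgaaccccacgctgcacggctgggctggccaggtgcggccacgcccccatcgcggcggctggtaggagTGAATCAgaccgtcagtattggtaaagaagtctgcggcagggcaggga
For comparison, 7.04% of the 32536 different windows of this length held a STAT match and 6.73% an AP-1 match. A match describes letters in the window and not a bound site.

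The authors named the clusters from marker genes such as these, so the values here describe the clusters and do not test their names. *Foxp3*, the regulatory T cell factor, was found in 56.7% of TFR cells and 7.19% of activated TFH cells. *Sostdc1* was found in every cell of the cluster of that name, *Sox4* in 70.1% of central memory cells, *Gzmk* in 86.7% of effector cells and *Ifit1* in 88.7% of cells of the interferon-stimulated gene (ISG) cluster. The listed markers of activated TFH cells did not single them out. *Tnfsf8* was found in 63.4% of these and in 76.5% of *Sostdc1* cells. *S100a6* was found in 75.8% of activated TFH, 74.6% of *Sostdc1* and 74.9% of ISG cells. *Ikzf2* was found in 90.8% of TFR and 62.1% of activated TFH cells, and *Slamf7* in 50.8% of central memory and 39.1% of effector cells. *Cd3e* was found in 99.4% of all cells. The defining B cell gene *Cd79a* was found in 0.259% and the plasma cell gene *Jchain* in 0.188% of all cells, and cells with any of 11 B cell or plasma cell markers made up 3.93% of the total. The other 4 listed markers in the table, *Cd22*, *Cd79b*, *Fcmr* and *Xbp1*, were found in 4.43%, 3.56%, 2.95% and 31.3% of cells and were left out of the 11 after their values were seen.

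Each member had its own distribution over the clusters. The share of cells with a corrected count of at least 1 is given as mean ± SD over the mice with at least 20 cells in a cluster, and the differences are described without a test because the clustering used these values. *Bcl6* was found in 16.2% ± 3.19 of *Sostdc1* cells (n = 10), 11.3% ± 2.51 of activated TFH cells and 9.61% ± 1.43 of TFR cells. It was higher in *Sostdc1* than in activated TFH cells in 9 of 10 mice. Shares below activated TFH cells overlapped one another, down to 6.39% ± 2.60 in effector cells.

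*Prdm1* followed another order. It was found in 12.1% ± 6.29 of effector cells, 8.44% ± 2.23 of TFR cells, 2.93% ± 1.26 of activated TFH cells and 0.837% ± 0.810 of *Sostdc1* cells (n = 10 each). Effector and TFR cells overlapped, with effector cells higher in 7 of 10 mice, whereas activated TFH exceeded *Sostdc1* cells in 10 of 10. In 3 mice no *Sostdc1* cell had a count of *Prdm1*, which for the 82 such cells of 564Igi mouse 24 allows a share of up to 3.66%. TFR cells thus held *Bcl6* and *Prdm1* at similar shares, while *Sostdc1* and effector cells stood at opposite ends for both genes.

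*Maf*, *Batf* and *Tox2* shared a low point in central memory cells. *Maf* was found in 19.6% ± 13.6 of these (n = 8) and in 63.8% ± 10.97 to 72.1% ± 4.61 of the cells of every other cluster. *Batf* was found in 27.5% ± 11.9 of central memory cells and was highest in TFR cells, at 65.9% ± 3.56. *Tox2* ran from 9.09% ± 9.99 in central memory to 47.4% ± 5.55 in *Sostdc1* cells, which exceeded activated TFH cells in 10 of 10 mice. *Tox* had no such low point and ran from 59.5% ± 10.1 in ISG to 72.9% ± 5.63 in *Sostdc1* cells, which exceeded activated TFH cells (61.2% ± 5.56) in 10 of 10 mice.

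*Pou2af1* was found in 34.2% ± 9.92 of central memory cells (n = 8) and 27.2% ± 6.09 of *Sostdc1* cells. Central memory cells were the higher in 5 of 5 WT mice but in only 1 of the 3 564Igi mice with enough of them. The shares were 18.7% ± 5.13 in activated TFH, 12.4% ± 2.29 in TFR and 4.19% ± 3.17 in effector cells. *Irf4* was sparse in all clusters, with the highest share in TFR cells (7.83% ± 1.29) and the lowest in effector cells (2.56% ± 2.01). Ordered by mean level, the log2(corrected count + 1) averaged over cells, the highest cluster was the same for 6 of 8 members, the exceptions being *Maf* (ISG) and *Tox* (effector). The share of cells with 1 of the 11 B or plasma cell markers was 3.52% in effector, 3.69% in ISG, 3.75% in TFR, 3.81% in activated TFH, 4.41% in central memory and 5.17% in *Sostdc1* cells. Central memory and *Sostdc1* cells, the highest for these markers, were thus also the highest for *Pou2af1*. With the marker *Derl3* left out, the shares were 4% in central memory, 3.69% in ISG and 3.07% in *Sostdc1* cells. They were 2.72% in activated TFH, 2.64% in effector and 2.04% in TFR cells. Central memory cells were still the highest, and ISG cells, with *Pou2af1* in 12.6% ± 4.50, stood above *Sostdc1* cells. The part of B or plasma cell RNA in the differences between clusters was not tested.

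**Figure D1:**
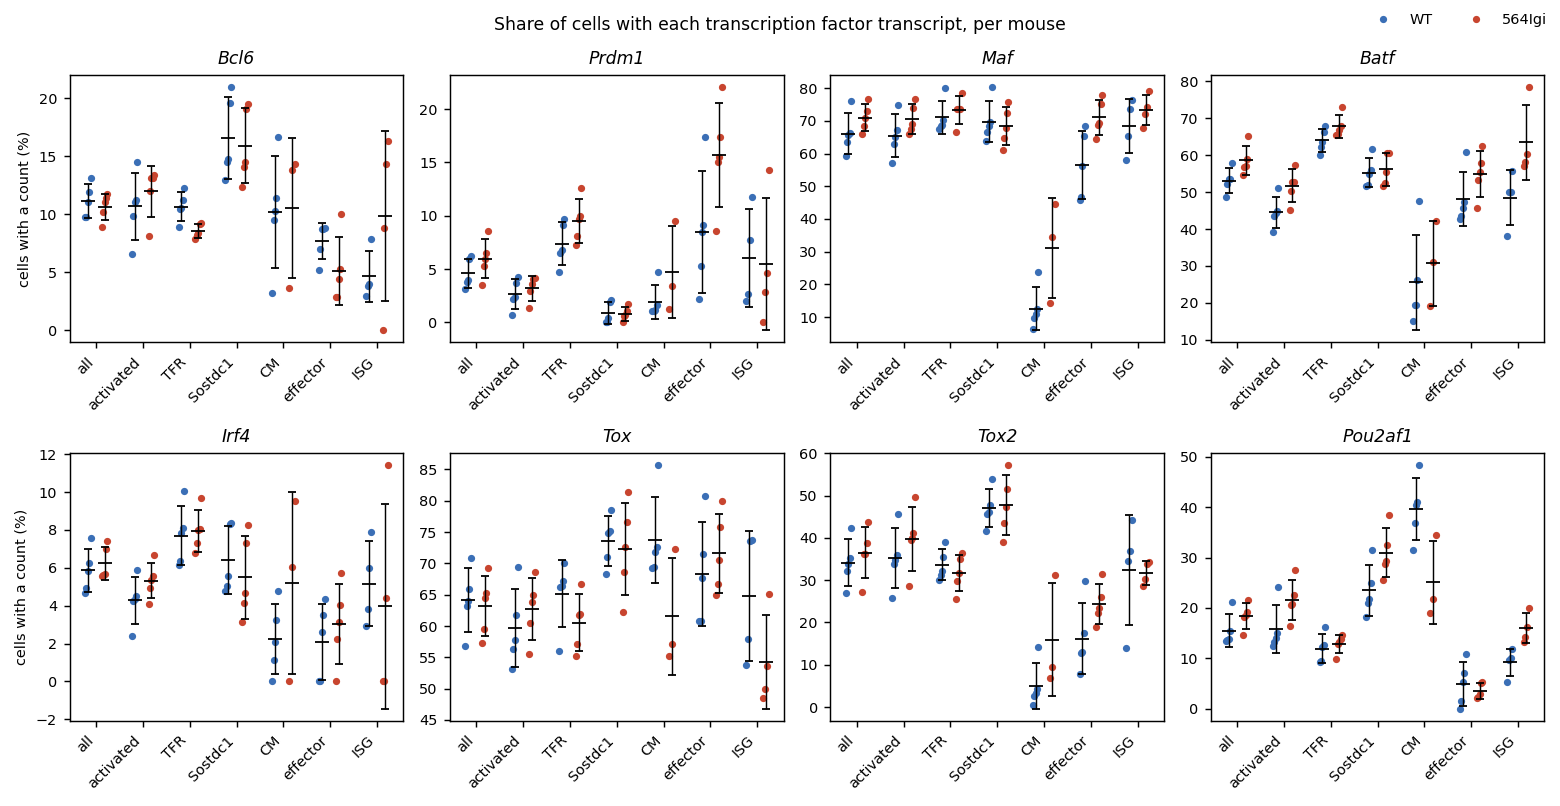
Percent of cells with a corrected count of at least 1 (vertical axis) for each member, in all cells and in each cluster (horizontal axis). Each point is 1 mouse with at least 20 cells, blue for WT and red for 564Igi, and black marks give mean ± SD over the mice of each group. *Bcl6* peaks in *Sostdc1* cells and *Prdm1* in effector and TFR cells, and *Maf*, *Batf* and *Tox2* are lowest in central memory cells.

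Within a mouse, TFR and activated TFH cells can be set side by side. *Batf*, *Irf4* and *Prdm1* were found in a larger share of TFR than of activated TFH cells in 10 of 10 mice, by 17.8 ± 3.74, 3.03 ± 0.935 and 5.51 ± 1.29 percentage points (SD, n = 10). *Pou2af1* was found in a smaller share in 10 of 10 mice, by -6.26 ± 3.66 percentage points.

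The comparison between conditions asked whether autoimmune chimeras differ from immunized WT chimeras in these genes. None of the 8 members was called in all follicular T cells by limma. A call needed a p under 0.01 after Benjamini-Hochberg adjustment over every gene tested and a difference beyond 0.2 on the log2 scale in either direction. These limits called 0.01% of the 9959 genes tested. At an unadjusted p below 0.05, limma counted 1 member, *Batf*, against 3.19% of all genes. That count was 0 without WT mouse 23 or 564Igi mouse 13, 2 without 564Igi mouse 24, 3 without 564Igi mouse 34 and 4 without WT mouse 14. The median difference was 0.026 over the members and -0.0018 over all genes on the log2 scale. The smaller a transcript's level, the smaller the difference that this scale can show. The authors had corrected the counts of WT and 564Igi cells in separate models, so a difference between conditions and one between those models cannot be told apart.

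*Batf* was found in 48.6%, 53.5%, 57.9%, 52.1% and 53.7% of cells of WT mice 11, 12, 14, 23 and 36. It was found in 65.3%, 57.0%, 59.0%, 56.8% and 54.8% of cells of 564Igi mice 13, 17, 21, 24 and 34. WT mouse 14 lay within the 564Igi range and every other WT mouse lay below it. The means were 53.1% ± 3.37 and 58.6% ± 4.04, and the exact permutation test over all assignments of mice gave p = 0.0397 (two-sided, unadjusted, n = 5 each, smallest possible 0.00794). *Batf* was the only member under 0.05 in this test, which 2% of all genes tested also passed. With cells thinned to 2800 corrected counts the exact p was 0.0873, and with equal weight for the 3 largest clusters it was 0.0714. The level differed by log2 0.12 ± 0.05 (SE, limma adjusted p = 0.9997).

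*Maf* was found in 59.3%, 66.1%, 76.1%, 65.6% and 63.4% of cells of the WT mice in the same order. In 564Igi mice the shares were 73.0%, 76.5%, 70.7%, 68.4% and 66.0%. The groups overlapped, and the difference of 4.83 percentage points had an exact permutation p of 0.190 (n = 5 each). WT mouse 14 was again the highest of its group. *Pou2af1* behaved alike, with 13.4%, 13.7%, 21.2%, 15.3% and 13.8% in WT mice and 21.6%, 18.2%, 18.7%, 14.5% and 19.2% in 564Igi mice (exact permutation p = 0.151, n = 5 each). Without WT mouse 14 the exact permutation p was 0.0159 for *Batf*, 0.0238 for *Maf* and 0.0238 for *Pou2af1*, with 4 WT and 5 564Igi mice. No other removal brought *Maf* or *Pou2af1* below 0.05. For *Batf* the exact permutation p was 0.0556 to 0.0794 without WT mouse 11, 12, 23 or 36 or 564Igi mouse 13, 17 or 21. Without 564Igi mouse 24 or 34 it was 0.0476 or 0.0317. With equal weight for the 3 largest clusters *Maf* differed by 1.99 percentage points (exact permutation p = 0.548). *Pou2af1* then differed by 4.70 (exact permutation p = 0.0794). Cells with 1 of the 11 B or plasma cell markers made up 3.17% ± 0.898 of cells in WT and 4.90% ± 0.5257 in 564Igi chimeras (exact permutation p = 0.0238, n = 5 each). That gap lay in 1 gene, *Derl3*, whose share was 0.642% ± 0.249 in WT and 2.37% ± 0.2697 in 564Igi mice. With *Derl3* left out, an alternative chosen after seeing the data, the shares were 2.52% ± 0.663 and 2.62% ± 0.417 (exact permutation p = 0.762, n = 5 each).

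Neither gene of the lineage-defining pair passed the share test between conditions at a count of at least 1. *Bcl6* was found in 11.9%, 9.78%, 13.1%, 9.77% and 11.1% of cells of the WT mice and in 11.045%, 11.4%, 10.2%, 8.92% and 11.7% of cells of the 564Igi mice, so that the groups overlapped. The exact permutation p was 0.563 (n = 5 each). *Prdm1* was found in 5.91%, 3.12%, 6.19%, 3.99% and 3.82% of the cells of WT mice, against 8.60%, 5.92%, 5.32%, 6.51% and 3.49% of those of 564Igi mice (exact permutation p = 0.254, n = 5 each). With a count of at least 2, the share of cells with *Prdm1* was 0.612% ± 0.212 in WT and 1.08% ± 0.461 in 564Igi mice (exact permutation p = 0.0476, n = 5 each). *Irf4*, *Tox* and *Tox2* differed by 0.375, -0.999 and 2.31 percentage points between group means, with exact permutation p values of 0.556, 0.778 and 0.540 (n = 5 each). In none of the 8 members did WT and 564Igi mice stand fully apart in all cells, as they did in 0.402% of all genes.

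No member was called by limma between conditions within any of the 6 clusters. The share of all genes called was 0.0101% in activated TFH, 0.02% in TFR, 0.0202% in *Sostdc1*, 0% in central memory, 0.0104% in effector and 0.0106% in ISG cells. At an unadjusted p below 0.05, limma counted 2 of 8 members in activated TFH cells (*Batf* and *Pou2af1*), against 3.99% of all genes. In TFR cells it counted 1 of 8 (*Batf*), against 3.5%, and in *Sostdc1* cells 1 of the 7 members tested (*Pou2af1*), against 4.6%, with *Prdm1* too rare there to be tested. The counts were 3 in central memory cells (*Maf*, *Pou2af1* and *Tox2*, against 7.57%), 3 in effector cells (*Maf*, *Batf* and *Tox2*, against 5.22%) and 1 in ISG cells (*Batf*, against 4.2%). On leaving out 1 mouse these counts ranged from 1 to 4 in activated TFH, 0 to 3 in TFR, 0 to 1 in *Sostdc1*, 3 to 5 in central memory, 1 to 3 in effector and 0 to 2 in ISG cells. The highest counts in activated TFH, TFR and central memory cells came without WT mouse 14, and that in ISG cells without 564Igi mouse 21. The lowest came without WT mouse 11 or 12 or 564Igi mouse 13 in activated TFH cells, WT mouse 12 or 564Igi mouse 13 in TFR and *Sostdc1* cells, WT mouse 11 or 23 or 564Igi mouse 21 in effector cells and WT mouse 11 or 564Igi mouse 13 in ISG cells. In TFR cells the count was 2 without WT mouse 23 or 564Igi mouse 21 or 34.

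The largest of these were in the small clusters. In effector cells the share with *Maf* was 56.5% ± 10.4 in WT mice and 71.1% ± 5.40 in 564Igi mice (SD, n = 5 each), and its level was log2 0.35 ± 0.10 higher (SE, limma adjusted p = 0.316). In central memory cells the share with *Maf* was 12.6% ± 6.65 in WT mice (n = 5) and 31.1% ± 15.4 in 564Igi mice (n = 3), a difference in level of log2 0.32 ± 0.07 (limma adjusted p = 0.140). There *Pou2af1* went the other way, with 39.7% ± 6.16 in WT and 25.1% ± 8.26 in 564Igi mice (log2 -0.23 ± 0.06, limma adjusted p = 0.354). In this cluster 2 of the 5 564Igi mice had fewer than 20 cells and did not enter.

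In ISG cells, the 4 WT and the 4 564Igi mice with enough cells stood apart for *Batf* (38.0% to 55.8% against 57.1% to 78.6%) and *Pou2af1* (5.26% to 11.8% against 13.2% to 20%). Groups of this size stood apart in 2.31% of the genes tested there, and limma called neither (adjusted p = 0.998 for both).

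The share test was also run within clusters, as an addition made after seeing the data, and 8 of its 48 combinations of member and cluster had an unadjusted exact permutation p below 0.05. These were *Batf* in activated TFH cells (0.0317, against 2.35% of all genes), *Bcl6* in TFR cells (0.0238, against 2.82%) and *Pou2af1* in *Sostdc1* cells (0.0476, against 3.92%). The others were *Maf* and *Pou2af1* in central memory cells (0.0357 each, against 5.22%), *Maf* in effector cells (0.0317, against 4.7%) and the 2 members that stood apart in ISG cells. The groups held 5 mice each except in central memory (5 WT and 3 564Igi) and ISG cells (4 each).

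In TFR cells, the opposed pair can be followed mouse by mouse. *Bcl6* was found in 12.2%, 11.2%, 10.6%, 8.86% and 10.4% of TFR cells of the WT mice and in 7.83%, 9.11%, 8.17%, 8.42% and 9.28% of those of the 564Igi mice. The groups overlapped only through WT mouse 23, and the means were 10.7% ± 1.23 and 8.56% ± 0.620. *Prdm1* was found in 9.71%, 4.75%, 9.10%, 6.82% and 6.49% of WT and 12.6%, 9.72%, 8.08%, 9.95% and 7.26% of 564Igi TFR cells (exact permutation p = 0.143, n = 5 each). In level, *Bcl6* was lower in 564Igi TFR cells by log2 -0.023 ± 0.011 and *Prdm1* higher by 0.027 ± 0.013 (SE, limma adjusted p = 0.9998 for both).

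Whether the condition difference itself differed between TFR and activated TFH cells was tested on each mouse's TFR minus activated value. None of the 8 members was called by limma, as was 0% of the 9682 genes tested. At an unadjusted p below 0.05, 5 of 8 members were counted by limma, *Tox*, *Pou2af1*, *Bcl6*, *Tox2* and *Prdm1*, against 7.27% of all genes. This count fell to 1 without WT mouse 12, to 2 without WT mouse 23 or without 564Igi mouse 13, 17 or 34, and to 3 without WT mouse 11. For *Tox* the share in TFR minus that in activated TFH cells was 8.65, 9.90, 0.579, 5.40 and 2.83 percentage points in the WT mice and -1.93, -3.05, -2.06, -3.29 and -0.449 in the 564Igi mice. It was above 0 in every WT mouse and below 0 in every 564Igi mouse. The groups stood apart on this difference in 1.19% of all genes tested, and on opposite sides of 0 in 0.124%. The test of the level gave log2 -0.13 ± 0.03 (SE, limma adjusted p = 0.443).

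The relation of *Bcl6* to *Prdm1* was then taken within single cells. The 2 transcripts were found together less often than their separate frequencies would give. In activated TFH cells 1378 cells had *Bcl6*, 337 had *Prdm1* and 12 had both, where 40.2 were expected from the shares within each mouse. In TFR cells 1129 had *Bcl6*, 958 had *Prdm1* and 45 had both, where 91.2 were expected. *Prdm1* was found in 0.871% of activated TFH cells with *Bcl6* and 3.07% of those without, and in 3.99% and 8.68% of the corresponding TFR cells. Among *Sostdc1* cells, 4 had both where 3.8003 were expected, on only 24 cells with *Prdm1*. No cell of any cluster had a count of at least 2 for both genes, where 3.16 were expected from the shares within each mouse and cluster.

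Detection of any transcript rises with depth, so the relation was measured as the odds ratio over 5 strata of the cells' raw UMI total within each mouse and cluster (Mantel-Haenszel). It is a description of the cells of each mouse, in which sampling of few molecules per cell leaves most cells without either transcript. In TFR cells the log2 odds ratio was -2.74, -2.30, -2.15, -1.26 and -1.01 in WT mice 11, 12, 14, 23 and 36. It was -0.34, -1.66, -0.86, -2.12 and -1.20 in 564Igi mice 13, 17, 21, 24 and 34. It lay below 0 in 10 of 10 mice, with a median of -1.46. In activated TFH cells it was -2.47, 0.10, -0.97, -2.29 and -1.38 in the WT mice and -1.39, -3.14, -3.44, -2.13 and -1.72 in the 564Igi mice. The median was -1.93, with 9 of 10 mice below 0. The exception, WT mouse 12, had only 6 activated TFH cells with *Prdm1*. In it and in 564Igi mice 21 and 24 no activated TFH cell had both. For these mice 0.5 was added to each entry of the table summed over the strata, so their values are not adjusted for depth.

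The relation was seen in both conditions. In TFR cells the log2 odds ratio averaged -1.89 ± 0.73 in WT and -1.23 ± 0.69 in 564Igi chimeras, and in activated TFH cells -1.40 ± 1.05 and -2.36 ± 0.89 (SD, n = 5 each). Neither difference had an exact permutation p below 0.05, at 0.183 and 0.151 (two-sided, unadjusted for the 2 comparisons, n = 5 each). Without the 1107 cells that had a B or plasma cell marker the medians were -1.51 in TFR and -1.83 in activated TFH cells. Without the 2673 cells listing 2 α chains they were -1.53 and -1.82.

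**Figure D2:**
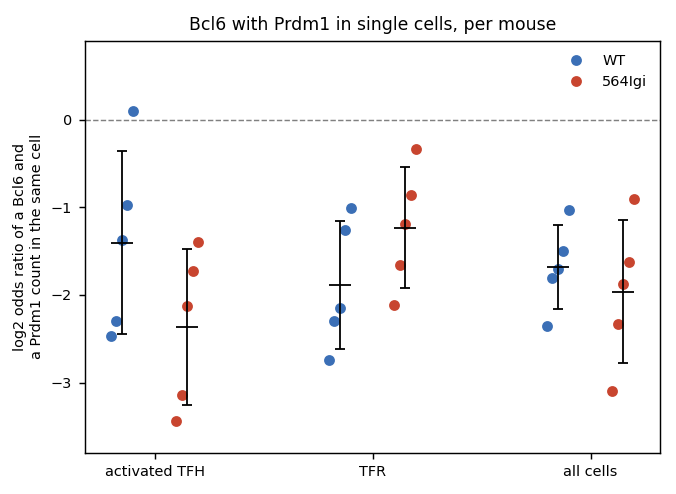
Log2 odds ratio of a *Bcl6* and a *Prdm1* count in the same cell (vertical axis), over 5 depth strata, in activated TFH cells, TFR cells and all cells. Each point is 1 mouse, blue for WT and red for 564Igi, black marks give mean ± SD (n = 5), and the dashed line marks no relation. All points but that of WT mouse 12 in activated TFH cells lie below 0.

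Among the 28 pairs of members, *Bcl6* with *Prdm1* had the lowest median odds ratio in both clusters. The next lowest were *Prdm1* with *Pou2af1* (log2 -1.39 in activated TFH and -1.26 in TFR cells) and *Prdm1* with *Tox2* (-1.17 and -0.82). Conversely, *Bcl6* was found more often with *Tox2* (0.88 and 0.71), *Pou2af1* (0.81 and 0.87) and *Tox* (0.93 and 0.56). For *Tox2* and *Pou2af1* this held in 10 of 10 mice in both clusters, and for *Tox* in 10 of 10 in activated TFH and 9 of 10 in TFR cells. *Tox2* and *Pou2af1* were also found together (0.80 and 1.08, 10 of 10 mice in both). Cells with *Bcl6* had a B or plasma cell marker in 7.05% of cases and other cells in 3.54%, at median depths of 4072 and 3491 UMIs. The corresponding shares were 6.16% and 3.47% for *Pou2af1*, 5.16% and 3.25% for *Tox2*, and 2.84% and 3.99% for *Prdm1*. Depth was not matched in these shares. Without cells with such a marker the log2 odds ratio of *Bcl6* with *Pou2af1* was 0.90 in activated TFH and 0.95 in TFR cells.

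*Batf* and *Irf4*, whose products bind DNA together, were found together in 10 of 10 mice in both clusters (log2 0.59 in activated TFH and 1.25 in TFR cells). *Prdm1* was found with *Maf* more often than separate frequencies give in 9 of 10 mice in activated TFH cells (log2 1.87, range -1.19 to 4.04) and 10 of 10 in TFR cells (0.71). All the mice lay on 1 side of 0 for 9 of the 28 pairs in activated TFH and 11 in TFR cells. The pairs share libraries, cells and depth, and are not independent of each other or of the clustering.

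**Figure D3:**
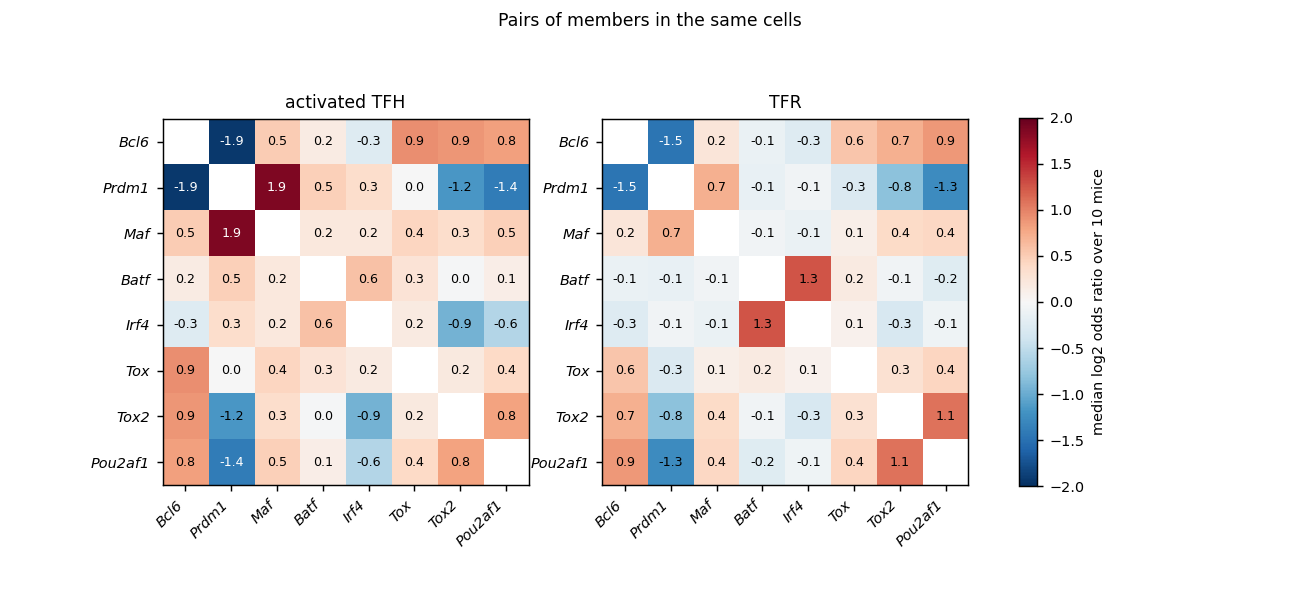
Median over 10 mice of the log2 odds ratio for each of the 28 pairs of members being found in the same cell, in activated TFH (left) and TFR cells (right). Blue marks pairs found together less often and red pairs found together more often than separate frequencies give within depth strata. *Bcl6* with *Prdm1* is the lowest in both panels, at -1.93 and -1.46.

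*Tox2* and *Pou2af1* also differed between cells with *Bcl6* alone and cells with *Prdm1* alone. In activated TFH cells, *Tox2* was found in 52.4% ± 5.60 of cells with *Bcl6* alone, 36.2% ± 7.70 of cells with neither transcript and 21.1% ± 8.49 of cells with *Prdm1* alone (SD, n = 10 mice). *Pou2af1* was found in 30.2% ± 7.32, 17.6% ± 5.40 and 8.07% ± 4.31 of these cells. In TFR cells the shares of *Tox2* were 46.2% ± 5.01, 32.1% ± 4.43 and 23.2% ± 3.74, and those of *Pou2af1* 21.8% ± 7.11, 12.05% ± 2.57 and 5.72% ± 2.47. *Maf*, *Batf* and *Irf4* did not follow this order in activated TFH cells, where each had its highest mean with *Prdm1* alone. For *Maf* the shares were 75.3% ± 5.2003 with *Bcl6* alone, 66.5% ± 6.28 with neither and 83.8% ± 13.4 with *Prdm1* alone, and for *Tox* 73.3% ± 5.97, 59.7% ± 5.72 and 58.2% ± 13.005. Cells with *Bcl6* alone and with *Prdm1* alone had similar depths (mean of the mouse medians 3997 and 4002 UMIs in activated TFH, 3847 and 3832 in TFR cells), and cells with neither had fewer (3438 and 3392).

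TCR sequences, joined to 75.9% of cells by barcode, gave the size of each cell's clone. Cells of clonotypes with at least 5 cells in a mouse, called expanded, were compared within each mouse with cells whose clonotype was found once. Activated TFH cells gave 4877 expanded cells of 801 clonotypes and 2416 single cells, and TFR cells gave 3953 expanded cells of 664 clonotypes and 2972 single cells. No member passed both limits of the call in either cluster, where they called 0.223% and 0.1% of all genes. At an unadjusted p below 0.05, limma counted 7 of 8 members in activated TFH and 4 of 8 in TFR cells, against 23.5% and 19.2% of all genes.

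Of the 8, *Maf* and *Tox* passed the adjusted p of 0.01 in activated TFH cells but not the limit on size, as did 3.99% of all genes. In single and expanded activated TFH cells, *Maf* averaged 0.998 ± 0.19 and 1.19 ± 0.17 on the log2(corrected count + 1) scale (SD, n = 10). The difference was 0.20, 0.26, -0.029, 0.33 and 0.28 in the WT mice and 0.25, 0.16, 0.038, 0.35 and 0.099 in the 564Igi mice, so that *Maf* was higher in expanded cells in 9 of 10. The fitted difference was log2 0.19 ± 0.03 (SE, limma adjusted p = 8.2e-05). Leaving out WT mouse 14, the 1 mouse below 0, brought it over the limit (0.22, limma adjusted p = 1.7e-05), as did leaving out 564Igi mouse 21 (0.21) or 34 (0.20). *Tox* was higher by log2 0.14 ± 0.03 (adjusted p = 0.00173, 9 of 10 mice), by 0.22 on average in WT and 0.062 in 564Igi mice.

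In TFR cells, 1.1% of all genes and none of the members passed the adjusted p of 0.01. *Maf* and *Prdm1* came closest, higher in expanded cells in 10 of 10 mice each, by log2 0.10 ± 0.02 (limma adjusted p = 0.0181) and 0.033 ± 0.009 (adjusted p = 0.0290). *Bcl6* differed by less than the spread between mice in activated TFH (log2 -0.0021 ± 0.0099, adjusted p = 0.921) and TFR cells (-0.00056 ± 0.0084, adjusted p = 0.981). Expanded cells were shallower than single cells, with mouse medians averaging 3513 against 3921 UMIs in activated TFH and 3414 against 3633 in TFR cells. The part of depth in these differences was not tested.

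**Figure D4:**
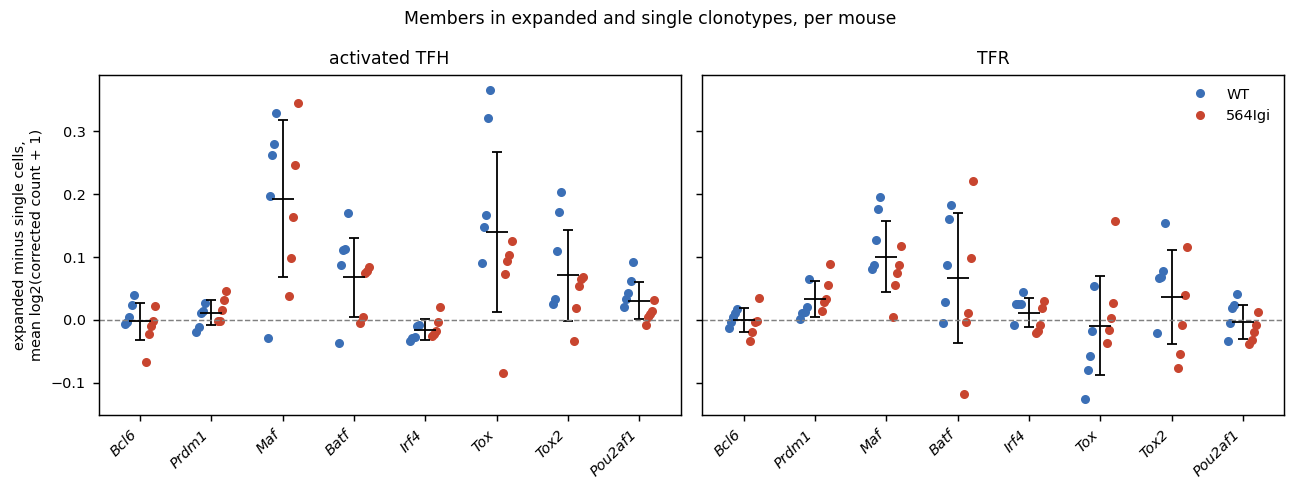
Difference in mean log2(corrected count + 1) between expanded and single cells of the same mouse (vertical axis) for each member, in activated TFH (left) and TFR cells (right). Each point is 1 mouse, blue for WT and red for 564Igi, and black marks give mean ± SD over 10 mice. *Maf* lies above 0 in all mice but WT mouse 14 in activated TFH cells and in all mice in TFR cells, and *Bcl6* lies around 0.

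Genes that act on or with the members were listed by role, and 45 of 51 were tested. None was called by limma between conditions in all cells, in either direction, and 8 had an unadjusted p below 0.05, against 3.19% of all genes. Among 10 genes that raise *Bcl6* or act beside it, none was called and 4 had an unadjusted p below 0.05. Among the largest positive differences of the whole list were log2 0.15 ± 0.10 for *Pdcd1* and 0.14 ± 0.06 for *Icos* (SE, limma adjusted p = 0.9997 for each). *Pdcd1* encodes the receptor PD-1 used in the sort, and *Icos* encodes a costimulatory receptor of TFH cells. The largest negative differences were -0.11 ± 0.06 for *Sh2d1a*, which encodes the adaptor SAP, -0.080 ± 0.062 for *Klf2*, a factor that opposes TFH fate, and -0.079 ± 0.037 for *Il7r*, the receptor chain for IL-7 (adjusted p = 0.9997 for each).

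Of 8 genes that oppose *Bcl6*, 3 were above 0 and none had an unadjusted p below 0.05. All 6 genes that TFH cells lower, which include the homing receptor gene *Ccr7*, were below 0 in 564Igi chimeras, with a median of log2 -0.049 and none called. Between expanded and single cells, 1 gene of the list was called in each cluster, *Pdcd1*, higher in expanded cells by log2 0.36 ± 0.05 in activated TFH (limma adjusted p = 3.8e-06) and 0.25 ± 0.03 in TFR cells (adjusted p = 7.2e-06).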

How the data were processed

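The members and gene lists were chosen with earlier results of these data known. The authors aligned reads to GRCm38 (mm10) with Cell Ranger 4.0.0, filtered cells with Seurat 3.1.4 and ran sctransform on WT and 564Igi cells apart from each other. The deposited expression values are the natural log of the corrected UMI count plus 1. The exponential minus 1 gave whole numbers for 100% of values (relative tolerance 1e-06), which are corrected and not raw counts. The cell table deposited by the authors holds raw UMI and gene counts per cell, the percent of mitochondrial UMIs, a heat shock score and cluster names. It holds 28192 cells, fewer than the study's text states. No doublet caller was run and free RNA was not removed.

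Values were converted to log2(corrected count + 1) and averaged per mouse and cluster (minimum 20 cells). A gene entered if it reached 1% of cells in a number of mice equal to the smaller group. Tests used limma 3.58.1 in R 4.3.3, with a trended prior, and were checked on simulated data. Single values per mouse were compared by two-sided exact permutation. Named genes were all members, and from the list of related genes the 3 largest differences in each direction in all cells plus any called, and some genes that this rule names are not reported here. Intervals of shares are spreads between mice. Nothing in the labels ties mice of the 2 groups to each other.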

Additional observations from a re-analysis of the deposited data

Results flagged for a closer look

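Within groups of 4 or 5 mice, 142 sets of values were searched for a mouse far from the others, and 11 had one, where chance gives about 1 in 20. WT mouse 14 was the highest of its group in 6 of them. It had *Pou2af1* in 21.2% of all cells (other WT mice 13.4% to 15.3%) and in 24.1% of activated TFH cells (12.5% to 14.9%). It had *Maf* in 80.1% of TFR cells (67.6% to 70.2%). Among its central memory cells *Prdm1* was found in 4.76% (1.05% to 1.61%), *Tox* in 85.7% (69.3% to 72.6%) and *Tox2* in 14.3% (0.5682% to 4.21%). Central memory is among the small clusters, so shares of rare transcripts there rest on few cells per mouse.

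Of 564Igi mice, mouse 24, the library with the lowest depth, was lowest for *Bcl6* in activated TFH cells (8.09%, others 11.98% to 13.4%) and for the difference of *Tox* between expanded and single activated TFH cells (log2 -0.084, others 0.074 to 0.12). Mouse 13 was highest for *Batf* in ISG cells (78.6% of only 28 cells, others 57.1% to 60.3%). WT mouse 36 was lowest of its group for *Tox* in TFR cells (56.0%, others 66.2% to 70.0%). The values of 564Igi mice 34 and 24 were similar, at 55.1% and 57.1%. Mice 36 and 34 had the highest mean heat shock scores, 0.081 and 0.115, against 0.017 in mouse 24. The part of this score in the shares was not tested. WT mouse 12 was highest of its group for *Batf* in effector cells (60.9% of only 23 cells, others 42.9% to 47.4%).

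The share of *Tox* in TFR minus that in activated TFH cells was above 0 in every WT mouse and below 0 in every 564Igi mouse, a gap of -7.62 percentage points between group means. Of all genes tested, 1.19% had groups that stood apart on this difference and 0.124% had them on opposite sides of 0. The test of the corresponding difference in level did not pass (limma adjusted p = 0.443).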

How the results depend on the processing

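No paired analysis was possible because WT and 564Igi mice share no replicate numbers. Every alternative (no trend or filter, other pseudocount, scaling or threshold, sex or heat shock as covariate, each mouse left out) called 0 members between conditions in all cells and in the TFR against activated TFH comparison. Within clusters the count ranged from 0 to 1 on leaving out a mouse, the 1 being *Maf* in central memory cells without 564Igi mouse 13. The count of members with an exact permutation p below 0.05 in all cells, 1 as reported, was 0 after thinning, 0 with equal cluster weights, 2 with a count of at least 2 (*Batf* and *Prdm1*) and 0 to 3 on leaving out a mouse. In cells with 3000 to 5000 raw UMIs it was also 1, but *Pou2af1* (p = 0.0397) in place of *Batf* (p = 0.111, exact permutation). In expanded activated TFH cells 1 member (*Maf*) was called without cells listing 2 α chains, 2 passed with no limit on size (chosen after seeing the data) and 0 to 1 on leaving out a mouse. Without the trend option the adjusted p of *Maf* there was 0.0113. Leaving out a mouse moved the *Bcl6* with *Prdm1* median from -2.13 to -1.72 in activated TFH and from -1.66 to -1.26 in TFR cells. A count of at least 2 for both genes gave no odds ratio because no cell had it.

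Small differences that were not called changed sign under some alternatives, and the cause was not tested. Between conditions, leaving out a mouse gave *Bcl6* -0.0079 to 0.0019 and *Tox* -0.051 to 0.020 in all cells, and *Irf4* -0.0033 to 0.010 in TFR cells, where averaging before the log gave -0.0018. Between expanded and single activated TFH cells *Bcl6* was 0.00028 with clonotypes of at least 3 cells, 0.0039 without cells listing 2 α chains and -0.0067 to 0.0051 on leaving out a mouse. In TFR cells *Bcl6* was 0.0019 with clonotypes of at least 3 cells, 0.0086 as a mean over clonotypes and -0.0045 to 0.0031 on leaving out a mouse. There the mean over clonotypes gave 0.017 for *Tox* (-0.028 to 0.0040 on leaving out a mouse) and 0.023 for *Pou2af1*, which was 0.0059 without cells listing 2 α chains. Corrected counts are low for *Bcl6*, *Prdm1* and *Irf4*, and depth limits what could be detected for them.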

Other observations

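Genes among those whose mean level was most like that of a member were taken over 56 points, each 1 mouse in 1 cluster with at least 20 cells. The points share mice, libraries and the clustering, so the correlations are a description, without a test. Among the genes most like *Bcl6* were *Sh3rf1* (Pearson's r = 0.688) and *Adamts3* (0.659), and *Prdm1* was most like *Pvrig* (0.806), *Irf1* (0.801) and *Rgs1* (0.774). *Maf* was most like *Pkp3* (0.874), *Cd52* (0.844) and *Fxyd5* (0.837), and *Batf* most like *Cd2* (0.902), *Sdf4* (0.901) and *Tnfrsf4* (0.865), which encodes the costimulatory receptor OX40. Among the genes most like *Tox2* were *Tnfaip8* (0.902) and *Gna13* (0.884), which encodes a G protein subunit, and *Pou2af1* was most like *Marcksl1* (0.879), *Tubb2a* (0.833) and *Serp1* (0.832). *Tox* was most like *Vgll4* (0.740), *Mad1l1* (0.650) and *Plek* (0.624). *Irf4* was most like *St14* (0.680), *Ifitm2* (0.668) and *Gm16894* (0.666).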
